A study of Mus musculus with 6 samples.

Results

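The cytosolic ribosomal protein (RP) genes encode the protein subunits of the ribosome outside the mitochondria. They were chosen by name among the genes of the deposited count tables: symbols beginning with Rpl or Rps followed by a digit, with Rplp0, Rplp1, Rplp2 and Rpsa, and without pseudogene names holding "-ps" or the Rps6k kinases. This gave 87 of 31253 genes: 46 core genes of the large subunit, 31 core genes of the small subunit, 8 close paralogs, and 2 genes that match by name only (Rps19bp1, which encodes a nucleolar protein that binds Rps19, and Rps23rg1, a retrogene of Rps23). All 77 listed core genes were matched, and the core genes held 99.2% of the RP counts.

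Ribosomal proteins assemble with ribosomal RNA in the nucleolus into a small subunit, which reads the messenger RNA, and a large subunit, which joins amino acids. Their messenger RNAs are short and abundant, and many start with a run of pyrimidines at the cap through which growth signalling by mTOR adjusts their translation. In liver, as in other tissues, they are expressed in every cell type, so their share of the messenger RNA can be compared across all of them.

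The libraries came from livers of mice with floxed Sting alleles, which encode an innate immune adaptor that answers cyclic dinucleotides. The 3 knockout mice (Stingfl/fl Cdh5-Cre+) carried a Cre recombinase driven by the promoter of Cdh5, a gene of endothelial cells, and the 3 control mice were littermates without Cre (Stingfl/fl Cdh5-Cre-). All 6 mice ate normal chow until 8 weeks of age and then received a western diet with carbon tetrachloride (WD-CCl4) for 12 weeks, a model of metabolic steatohepatitis, so no library came from an untreated liver. Each mouse gave 1 library of 10x Genomics Chromium 3′ single-cell RNA-seq from dissociated liver, although the cell type given in the labels is the liver sinusoidal endothelial cell.

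The libraries held 55017937 to 73867890 UMIs (unique molecular identifiers, 1 for each captured molecule) in 5133 to 9212 barcodes, and 41759 of 44656 barcodes were kept. Median depth per cell was 5742, 4748 and 7555 UMIs in the controls and 6137, 5629 and 6188 in the knockouts. Clustering without RP genes gave 36 clusters, named "-like" from marker genes, and names rebuilt in this way may differ from those of the study. Only 237 cells formed the cluster led by Stab2 and Clec4g, which mark sinusoidal endothelium, against 2635 endothelial-like cells in all. The targeted gene, Sting1, was at 26.8, 26.3 and 26.7 CPM (a gene's UMIs scaled to a total of 1000000 per class and library) in endothelial-like cells of the controls and at 21.9, 15.0 and 21.9 CPM in the knockouts. All 3 knockouts were lower, with a log2 fold change of -0.48 (SE 0.18) and an adjusted p of 0.722 in edgeR's quasi-likelihood test. The difference was not limited to this class: every knockout was also below every control in B-like cells (log2 fold change -0.79, SE 0.23) and NK/ILC1-like cells (-0.75, SE 0.22), and above every control in cDC1-like cells (0.62, SE 0.25), with adjusted p of 0.549, 0.591 and 0.679 by edgeR. The labels do not say which exons are floxed, so a 3′ tag may lie outside the deleted part and checks the labels only in part. The 15 pairs of libraries had 5 to 25 cell barcodes in common, between 0.0974% and 0.328% of the smaller library.

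Promoter sequences of 50 bases are shown for members that the comparisons turn on, from 30 bases before to 20 bases after the annotated start, read from RefSeq on build GRCm38.p6. Capitals mark a run of at least 5 pyrimidines counted from a C within 5 bases of the start, the letters of a terminal pyrimidine tract. Pyrimidines directly before that C are not marked. The set holds short and long coding sequences, with and without the run. Pyrimidine runs farther from the annotated start, as can be read in Rpl4 and Rpl5, are not marked either. A window without capitals may therefore still hold a run.
Rpl35, large subunit, chr2:39005112-39005161, minus strand: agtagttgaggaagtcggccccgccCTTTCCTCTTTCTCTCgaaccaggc
Rpl38, large subunit, chr11:114668550-114668599, plus strand: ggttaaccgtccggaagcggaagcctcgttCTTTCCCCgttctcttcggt
Rpl37, large subunit, chr15:5116583-5116632, plus strand: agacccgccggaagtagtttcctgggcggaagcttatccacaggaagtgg
Rps28, small subunit, chr17:33824543-33824592, minus strand: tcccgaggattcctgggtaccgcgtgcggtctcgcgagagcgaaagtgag
Rpl14, large subunit, chr9:120571487-120571536, plus strand: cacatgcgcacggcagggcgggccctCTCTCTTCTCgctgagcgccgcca
Rpl5, large subunit, chr5:107900498-107900547, plus strand: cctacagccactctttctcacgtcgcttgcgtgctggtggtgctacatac
Rpl4, large subunit, chr9:64173357-64173406, plus strand: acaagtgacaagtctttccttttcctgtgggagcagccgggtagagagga

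Of the 87 members, 67 matched the promoter table, with 79 entries. A pyrimidine run as defined above stood in 33 of the 79 entries (41.8%), against 18.3% of all 32851 promoters of the same length. At least 5 pyrimidines in a row counted from a C exactly at the annotated start stood in 14 entries (17.7%), against 2.51% of all promoters. This count includes rows of pyrimidines that began before the start, as in Rpl35 and Rpl14. In Rpl35 and Rpl14 above the capitals begin 5 and 4 bases before the annotated start, and in Rpl38 at the start. In each of these genes pyrimidines also stand directly before the capitals, so the row of pyrimidines opens earlier. In the whole window of 250 bases before to 50 after the start, read on both strands, CCGGAAG, the core letters bound by Ets-family factors, was in 27 entries (34.2%) against 8.86% of all promoters, and it can be read in Rpl38 and Rpl37 above. The shorter TTCCGG, whose reverse complement lies within CCGGAAG, was in 37 entries (46.8%) against 14.9%. TATAAA, the core of a TATA box, was in 7 entries (8.86%) against 13.6%. These matches describe letters and not binding sites. Among members with an entry, the pyrimidine run was present in 19 of 36 with a coding length below the median and in 12 of 31 at or above it.

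RP genes gave 12.3% of all UMIs in kept cells. By library their share was 14.4%, 10.8% and 12.0% in the controls and 13.5%, 11.3% and 11.6% in the knockouts. A cell carried on average 1113, 773 and 1325 RP UMIs in the controls and 1315, 939 and 1192 in the knockouts, beside the median depths given above. Control 1 had the highest share at a middling depth, and control 2 had both the lowest share and the lowest depth.

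The share differed between cell classes. Averaged over the 6 mice, it was highest in cDC1-like cells (type 1 conventional dendritic cells, which cross-present antigen), at 15.9% ± 1.15 (SD, n = 6), then 14.3% ± 1.78 in T-like cells, 13.4% ± 2.00 in B-like cells and 13.1% ± 0.571 in mesothelial-like cells, the lining of the liver surface. NK/ILC1-like cells followed at 12.2% ± 1.61 and plasma-like cells, which secrete antibody, at 11.9% ± 1.05. Cholangiocyte-like cells of the bile ducts, at 8.90% ± 0.344, endothelial-like cells, at 8.80% ± 0.727, and stellate/fibroblast-like cells, at 8.69% ± 1.51, lay close together. Neutrophil-like cells were lowest and most variable, at 7.26% ± 3.39.

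In an exact two-sided sign-flip test over the 6 mice, with RP genes left out of the clustering, 8 of 10 classes differed from the mean of the other 9 at p = 0.03125, the smallest value that 6 mice allow (Benjamini-Hochberg adjusted 0.0391 over the 10 classes). cDC1-like cells stood 4.99 percentage points above the mean of the others, T-like cells 3.17, B-like cells 2.20 and mesothelial-like cells 1.79, each in 6 of 6 mice. Below it, in 6 of 6 mice, were neutrophil-like cells by -4.66 points, stellate/fibroblast-like cells by -3.08, endothelial-like cells by -2.95 and cholangiocyte-like cells by -2.84. NK/ILC1-like cells (0.881 points above, 5 of 6 mice, exact sign-flip p = 0.0625, adjusted 0.0694) and plasma-like cells (0.499 points above, 5 of 6 mice, exact sign-flip p = 0.406) did not pass. In the order of the means, the ranges over mice of neighbouring classes overlapped everywhere except between plasma-like cells, 11.1% to 13.9%, and cholangiocyte-like cells, 8.33% to 9.23%.

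**Figure D1:**
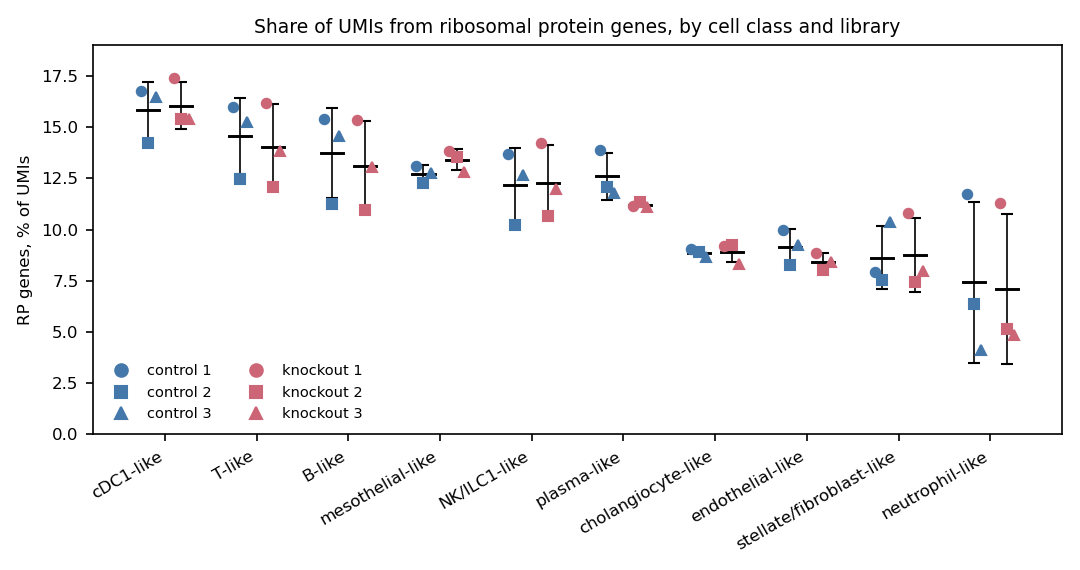
Percent of UMIs from ribosomal protein genes (vertical axis) in 10 cell classes (horizontal axis), 1 point per library, blue for control and red for knockout, with marker shapes for replicates and a bar at the mean. Means run from 15.9% in cDC1-like to 7.26% in neutrophil-like cells, and control and knockout points mix in every class but plasma-like, where the 3 controls lie above the 3 knockouts.

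The share also varied between clusters of 1 class. Among T-like cells the cluster led by Lef1 and Dapl1, genes of naive and early memory T cells, had the highest share of all clusters, 17.9% ± 2.98 (n = 6 mice), and the cluster with Foxp3 and Tnfrsf4, genes of regulatory T cells, was at 10.6% ± 1.45, below it in each of the 6 mice. The dividing T-like cluster with Mki67 was between them at 15.0% ± 1.57. Of the neutrophil-like clusters, that led by Elane and Mpo, granule genes of precursors, had 11.4% ± 3.24, and that led by Retnlg and Cxcl2, genes of mature cells, had 2.87% ± 0.729, the lowest of the clusters compared. Their numbers differed by mouse: knockout 1 had 155 cells of the Elane cluster and 281 of the Retnlg cluster, and control 3 had 8 and 286. The neutrophil-like share was 11.3% in knockout 1 and 4.12% in control 3. In the endothelial-like class, the cluster led by Rspo3 and Selp, venous genes, had 9.79% ± 0.792, that with Gja5 and Mecom, arterial genes, 8.58% ± 0.913, that with Ccl21a and Reln, lymphatic genes, 7.64% ± 1.19, and the Stab2 cluster 5.48% ± 0.598. The Stab2 cluster held few cells in some libraries: 5, 9 and 96 in controls and 87, 18 and 22 in knockouts. The stellate/fibroblast-like cluster led by Gsn and Dpt had 10.9% ± 0.912, and the cluster with Myh11 and Acta2, genes of smooth muscle, had 6.90% ± 1.05. The latter held 713 of the 1251 cells of the class, 118, 403 and 31 in controls and 12, 75 and 74 in knockouts. Values given for stellate/fibroblast-like cells therefore join both clusters. Each of these clusters was made without RP genes, but other genes that define it can go with ribosome content, so these values describe and do not test it.

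**Figure D2:**
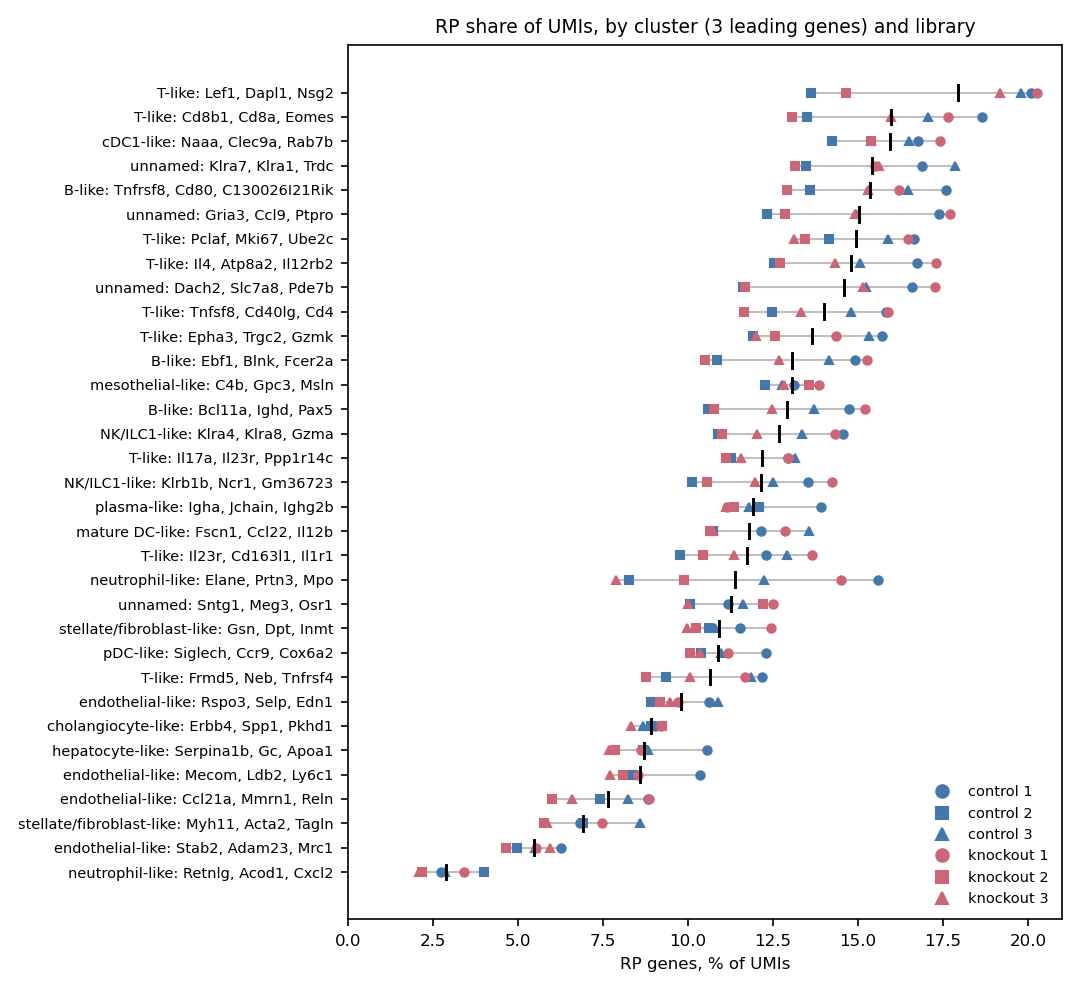
Percent of UMIs from ribosomal protein genes (horizontal axis) in each cluster, named by class and 3 leading genes (vertical axis), with 1 point per library and a black tick at the mean. T-like clusters run from 17.9% (Lef1, Dapl1) to 10.6% (the Frmd5, Neb, Tnfrsf4 cluster with Foxp3), and the mature neutrophil-like cluster is at 2.87%.

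Depth per cell went with the share differently in each class. With the cells of a class and library split into quartiles of total UMIs, the deepest quartile had a higher RP share than the shallowest by 7.59 points in neutrophil-like cells, 6.04 in plasma-like cells, 4.37 in T-like cells, 2.26 in cholangiocyte-like cells and 2.04 in mesothelial-like cells, in 6 of 6 mice each. In endothelial-like cells the difference was 0.506 points (4 of 6 mice), and in stellate/fibroblast-like cells it was -2.14 points, lower in the deepest quartile in 6 of 6 mice. The order of classes did not follow depth: T-like cells (14.3%) had a median of 5145 UMIs and cholangiocyte-like cells (8.90%) a median of 14389. Clusters of a class also differed in depth. In neutrophil-like cells the Elane cluster had a median of 28450.5 UMIs and the Retnlg cluster 4309. In stellate/fibroblast-like cells the Myh11 cluster had 9052 and the Gsn cluster 7671. The quartiles were not split by cluster. The part of cluster mix in the quartile differences, and of depth in the class differences, was not tested.

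Between genotypes the whole-library RP share differed by less than the spread among mice. It was 12.4% ± 1.82 (SD, n = 3) in controls and 12.1% ± 1.23 in knockouts, with exact two-sided permutation p = 0.8, and 3 against 3 mice cannot give a p below 0.1. With every library set to the same mix of classes it was 12.9% against 12.6%. In endothelial-like cells, where the Cdh5 promoter is known to be active, the controls were at 9.98%, 8.27% and 9.26% and the knockouts at 8.85%, 8.01% and 8.43%. These groups overlapped, with means of 9.17% ± 0.858 and 8.43% ± 0.417 (exact permutation p = 0.3). The summed endothelial markers took 0.703% to 0.822% of the UMIs of this class in controls and 0.863% to 1.03% in knockouts, and their part in the result was not tested. Median depth in this class was 9939, 5847 and 9976 UMIs in the controls and 8575, 10122 and 10200.0 in the knockouts. In T-like cells the shares were 16.0%, 12.5% and 15.3% in controls and 16.2%, 12.1% and 13.9% in knockouts, and the knockout effect in endothelial-like cells differed from that in T-like cells by -0.216 points (exact permutation p = 1). In mesothelial-like cells the shares were 13.1%, 12.3% and 12.8% in controls and 13.9%, 13.5% and 12.8% in knockouts (means 12.7% ± 0.426 and 13.4% ± 0.522, exact permutation p = 0.2), a difference above the SD of either group with overlapping groups. All 10 classes had an adjusted p of 1 by the exact permutation test with Benjamini-Hochberg adjustment.

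Plasma-like cells were the 1 class of 10 whose groups did not overlap, at 13.9%, 12.1% and 11.8% in controls and 11.2%, 11.4% and 11.1% in knockouts (means 12.6% ± 1.15 and 11.2% ± 0.129, exact permutation p = 0.1, the smallest possible). Which class separated depended on how cells were weighted. With the mean of per-cell shares, plasma-like groups overlapped (12.4%, 10.7% and 9.61% against 9.65%, 9.75% and 10.04%, exact permutation p = 0.4). Mesothelial-like groups then did not (12.5%, 11.7% and 12.3% against 13.4%, 13.0% and 12.6%, exact permutation p = 0.1). Immunoglobulin genes were 23.2% ± 4.07 of the UMIs of the class in controls and 28.3% ± 5.67 in knockouts. With immunoglobulin UMIs taken out of the total, a choice made after the values were seen, the RP share was 16.4% ± 1.58 in controls and 15.7% ± 1.07 in knockouts, with overlapping groups (exact permutation p = 0.6). Across classes, which share the same 6 libraries, control 1 was the highest control in 9 of 10 classes and control 2 the lowest in 7, and knockout 1 was the highest knockout in 8 and knockout 2 the lowest in 6.

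Each UMI counts 1 captured molecule at its 3′ end, so CPM was compared between members without division by length. The highest member was Rps24, a small-subunit gene, at 4492, 3048 and 3158 CPM in controls and 3657, 3067 and 2857 in knockouts (mean 3380 ± 607, n = 6). Rplp1, of the stalk that recruits elongation factors, had 3010.0 ± 400, Rpl13 2904 ± 438, Rps16 2888 ± 263 and Rpl23 2741 ± 327 CPM. The RP counts were evenly spread: these 5 genes held 12.2% of them, the 10 highest 21.9%, and the lowest core gene still had 174 CPM.

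The low members were paralogs and name matches. Rps19bp1 had 16.7 ± 2.17 CPM. Rpl39l, known from testis, had 0.951 ± 0.642 CPM from 339 UMIs, and Rpl3l, known from heart and skeletal muscle, had 0.888 ± 0.144 CPM from 327 UMIs. Rpl3l was at 4.84 ± 2.91 CPM in neutrophil-like and at 2.64 ± 1.58 CPM in stellate/fibroblast-like cells, against 0.12 ± 0.19 CPM in plasma-like cells, all at few counts per library. Rps23rg1 had 0.207 ± 0.0543 CPM from 77 UMIs, and Rpl10l, another testis paralog, had 1 UMI in all. UMIs of a near-identical copy can be split or dropped in counting, so the values of Rps23rg1 and of Rps27rt, a retrogene of Rps27, are uncertain.

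The large-subunit core genes together gave 1.14 times the UMIs of the small-subunit core genes, a log2 ratio of 0.19 ± 0.02 (n = 6 libraries). The ratio ran from a log2 of 0.08 ± 0.03 in B-like cells to 0.31 ± 0.02 in cholangiocyte-like cells. Between genotypes it was 0.19 ± 0.01 in controls and 0.20 ± 0.04 in knockouts over all cells (exact permutation p = 0.7).

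The make-up of the RP counts differed between classes in a few genes. For 83 members with at least 10 CPM on average and UMIs in every class and library, the share of the RP UMIs of a class ranged over classes by a median log2 of 0.64, from 0.23 to 2.82, and for 68 of them the range was under 1. The 8 members with the widest ranges were taken by this ranking, so their spread is a description. In each of the 8 the highest class was above the lowest in 6 of 6 libraries and their values did not overlap.

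Rps27l, a p53-responsive paralog of Rps27, had the widest range: it was 0.312% ± 0.0311 of the RP UMIs in cholangiocyte-like cells and 0.0447% ± 0.0101 in B-like cells. By library it had 287, 317, 279, 252, 256 and 269 CPM in cholangiocyte-like cells (controls first) and 60.01, 72.1, 67.1, 55.1, 47.4 and 52.4 CPM in B-like cells. Its parent Rps27 was highest in B-like cells at 2.38% ± 0.567 and, by its mean log2 share, lowest in plasma-like cells at 1.03% ± 0.290. Rps27rt was also highest in B-like cells (0.0780% ± 0.0188) and lowest in plasma-like cells (0.0326% ± 0.0125), and its reads cannot be told apart from those of Rps27 with certainty.

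Rpl36al, a paralog of Rpl36a, was highest in plasma-like cells: 0.566% ± 0.0935 of RP UMIs there, the highest class in 6 of 6 libraries, against 0.143% ± 0.0221 in endothelial-like cells. Its levels were 1029, 637, 677, 558, 653 and 533 CPM in plasma-like cells and 185, 118, 124, 112.3, 115.3 and 106 CPM in endothelial-like cells. Rpl36a itself varied by a log2 of 0.52 only. Rpl22l1, a paralog of Rpl22, was highest in cholangiocyte-like (0.665% ± 0.0814) and lowest in cDC1-like cells (0.204% ± 0.0196), and its parent Rpl22 varied by a log2 of 0.35.

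Core genes with wide ranges were Rpl10, which joins the large subunit late near its catalytic centre, at 1.89% ± 0.236 in plasma-like and 0.781% ± 0.101 in T-like cells, and Rpl28, at 1.42% ± 0.221 in neutrophil-like and 0.607% ± 0.0406 in NK/ILC1-like cells. Rps19bp1 was at 0.0284% ± 0.00340 in cholangiocyte-like and 0.00762% ± 0.00141 in B-like cells. Rpl7l1, a paralog of Rpl7 just outside the 8, ranged from 0.0470% in neutrophil-like to 0.0227% in plasma-like cells.

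**Figure D3:**
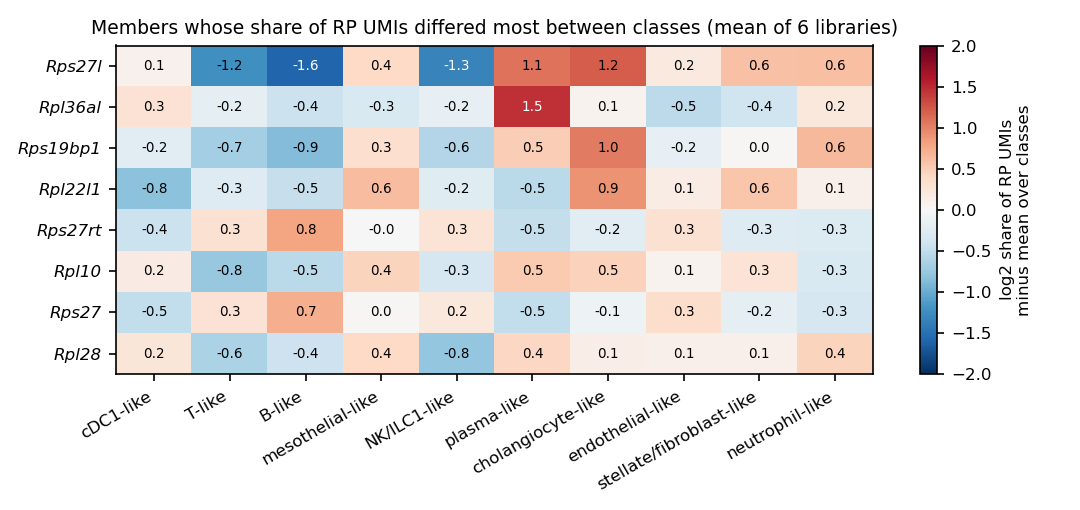
The log2 share of RP UMIs, as its difference from the mean over classes (colour and printed value), for the 8 members with the widest range (rows) in 10 cell classes (columns), each the mean of 6 libraries. Rps27l, Rps19bp1 and Rpl22l1 are highest in cholangiocyte-like cells, Rpl36al in plasma-like cells, and Rps27 and Rps27rt in B-like cells.

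The levels of members within a library went with the length of their coding sequence. Coding lengths ran from 75 nt in Rpl41 to 1257 nt in Rpl4, with a median of 453 nt. For 83 members with at least 600 UMIs, the log2 level over all cells, taken as the difference from the mean of the 6 libraries, had a Pearson r with log2 coding length of -0.78 in control 1, -0.67 in control 2 and 0.37 in control 3, and of 0.77 in knockout 1, -0.24 in knockout 2 and 0.79 in knockout 3. These are correlations across genes that share a library, its depth and its handling, and genes are not replicates, so they are given without a test. In control 1 the 11 members under 300 nt lay a median log2 of 0.79 above the 6-library mean, and in knockout 3 they lay at -0.44. The 20 members of 600 to 900 nt were at -0.05 in control 1, 0.29 in knockout 1 and 0.11 in knockout 3. The 87 members lie on 19 chromosomes.

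Rps29, with 168 nt, was among the shortest: it made up 1.59%, 1.21% and 1.00% of RP UMIs in the controls and 0.777%, 1.08% and 0.725% in the knockouts. Across 13124 other genes the same correlations were 0.03, 0.13 and -0.08 in controls and -0.18, 0.16 and -0.04 in knockouts. Other genes under 300 nt, 418 in number, were at a median of -0.05 in control 1 and 0.03 in knockout 3. Nuclear respiratory chain genes, 86 in number, had r of -0.59, -0.43 and 0.04 in controls and 0.35, 0.28 and 0.55 in knockouts. The 77 genes of the mitochondrial ribosome had r of -0.06, 0.02 and -0.32 in controls and -0.12, 0.56 and -0.06 in knockouts. Classes differed in this. In cDC1-like cells 23 of these genes had r of -0.78, -0.17 and 0.30 in controls and 0.47, -0.23 and 0.64 in knockouts. In T-like cells 74 of them had r of -0.08, 0.15 and -0.50 in controls and -0.07, 0.39 and 0.15 in knockouts.

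**Figure D4:**
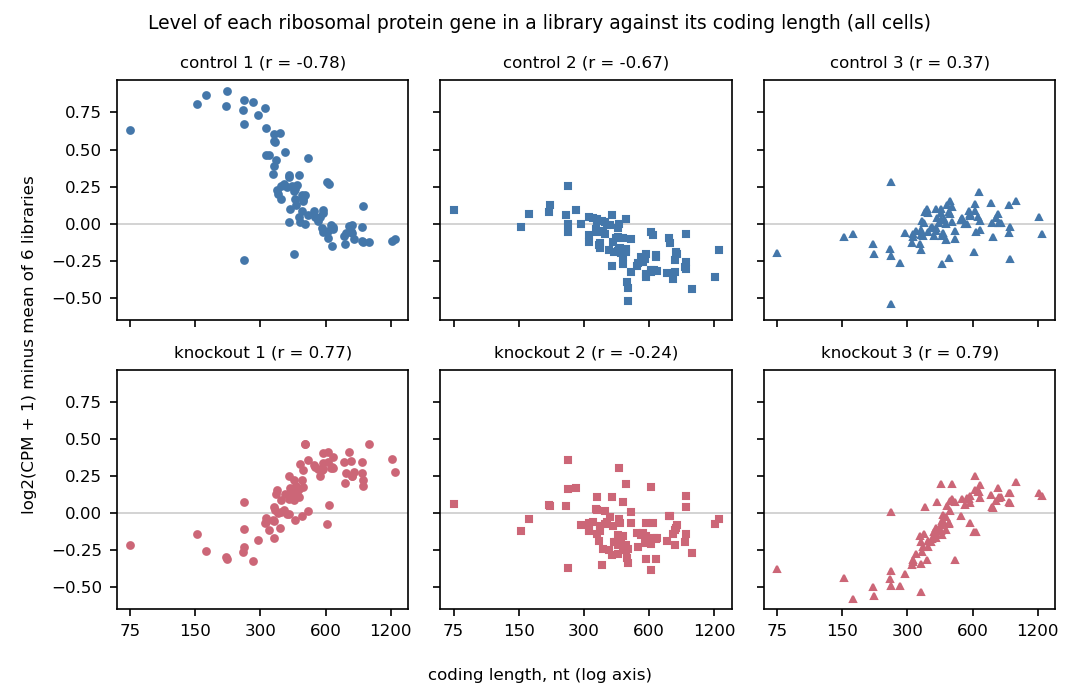
Each panel is 1 library: coding length in nt on a log axis (horizontal) against log2(CPM + 1) over all cells minus the mean of the 6 libraries (vertical), 1 point per ribosomal protein gene, 83 genes. Short genes lie high in control 1 (r = -0.78) and low in knockout 1 and knockout 3 (r = 0.77 and 0.79).

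The same ordering of libraries appeared in every class. The 43 members below the median length were set against the 44 at or above it, a split chosen after the values were seen and given without a test. The log2 ratio of their UMIs over all cells was 0.30, 0.08 and -0.21 in controls and -0.40, -0.03 and -0.40 in knockouts. In endothelial-like cells it was 0.30, 0.12 and -0.12 in controls and -0.32, -0.01 and -0.34 in knockouts, and in T-like cells 0.35, 0.18 and -0.16 against -0.36, 0.04 and -0.34. In all 10 classes control 1 was highest, control 2 next, then knockout 2, then control 3, with knockouts 1 and 3 lowest, and the groups overlapped. These classes come from the same 6 libraries and are not independent of each other. With 1 library per mouse, differences between library preparations and between mice cannot be told apart.

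**Figure D5:**
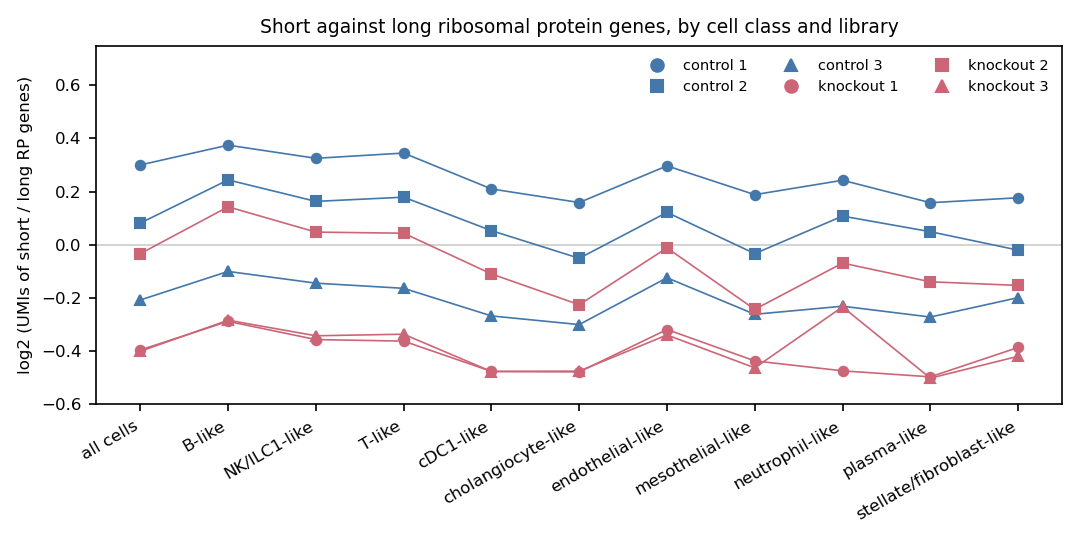
Log2 ratio of UMIs of short (43) to long (44) ribosomal protein genes (vertical axis) over all cells and in 10 classes (horizontal axis), with 1 line per library, blue for control and red for knockout. The lines keep the order control 1, control 2, knockout 2, control 3 from top to bottom in each class, with knockouts 1 and 3 lowest.

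In endothelial-like cells, short members gave 5.50%, 4.31% and 4.43% of UMIs in controls and 3.94%, 3.99% and 3.72% in knockouts, without overlap. Long members gave 4.48%, 3.96% and 4.83% against 4.91%, 4.02% and 4.71%, with overlap. In cholangiocyte-like and mesothelial-like cells the long members were the part without overlap and were higher in the knockouts, at 4.27%, 4.53% and 4.79% against 5.36%, 4.98% and 4.85% in cholangiocyte-like cells and at 6.13%, 6.20% and 6.97% against 7.97%, 7.34% and 7.44% in mesothelial-like cells.

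Gene by gene, no member passed at an adjusted p of 0.05 between genotypes, in all cells summed or in any of the 10 classes, by edgeR's quasi-likelihood test on UMIs summed per mouse with Benjamini-Hochberg adjustment over all genes tested. Over all cells 0 of 86 members tested were called, the percentage of all 18355 genes called was 0, and 0 members had an unadjusted p under 0.05, where 2.64% of all genes had one. DESeq2 also called 0 members, where it called 0.109% of all genes. It had 1 member at an unadjusted p under 0.05, beside 591 of all 18355 genes. Groups did not overlap for 4 of 86 members (4.65%), where 7.06% of all genes did not. The median log2 fold change of the members was -0.04, beside -0.01 over all genes. Its sign turned on single libraries: it was 0.10 without control 1, 0.02 without knockout 2 and 0.01 without knockout 3, and -0.15 without control 2.

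Over all cells the members of smallest p that were lower in knockouts were all short: Rps29 (log2 fold change -0.66, SE 0.32), Rpl38 (-0.64, SE 0.34), Rps28 (-0.57, SE 0.31), Rpl37 (-0.52, SE 0.28) and Rpl35 (-0.50, SE 0.24). Rpl35, which lies near the exit of the peptide tunnel, was at 863, 489 and 569 CPM scaled by TMM, edgeR's factor for library composition, in controls and 518, 430.1 and 415 in knockouts, overlapping groups. Control 1 was the highest library for each of the 5, and without it the fold changes were -0.23 for Rps29, -0.18 for Rpl38, -0.16 for Rps28, -0.15 for Rpl37 and -0.21 for Rpl35. The members of smallest p on the higher side were long: Rpl3 (0.27, SE 0.21), Rpl5 (0.27, SE 0.14), Rpl14 (0.26, SE 0.22), Rpsa (0.24, SE 0.19) and Rpl4 (0.22, SE 0.17). Each of the 10 had an adjusted p of 0.999.

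In endothelial-like cells the members leaned to lower values in the knockouts, with no member called (0 of 83, percentage of all 12224 genes called 0). edgeR gave an unadjusted p under 0.05 for 21 members, all lower, where 6.86% of all genes had one. DESeq2 called 0 members and 0.115% of all genes. It had 25 members at an unadjusted p under 0.05, beside 564 of all 12224 genes. Groups did not overlap for 28 of 83 members (33.7%), against 12.8% of all genes, and 27 of the 28 were lower (32.5% of members, against 6.55% of genes). The median log2 fold change was -0.14, beside 0.00 over all genes, with 62 members lower and 21 higher. Scaling to total UMIs without TMM, which moved the median of all genes to 0.06, gave 51 lower and 32 higher. With this scaling edgeR had 15 members at an unadjusted p under 0.05, beside 901 of all 12224 genes. The count of 21 was 6 without control 1, 6 without knockout 3 and 9 without knockout 1. It was 16 without knockout 2, 20 without control 3, 24 without control 2 and 24 with the replicate block. With a depth term the count was 21, with 69 members lower and 14 higher.

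The 5 lower members of smallest p were again short. Rps29, a zinc-binding protein of the small-subunit head, was at 1832, 1161 and 1114 TMM-scaled CPM in controls and at 756, 950.5 and 716 in knockouts, a log2 fold change of -0.76 (SE 0.22). Rps26, which contacts the messenger RNA at its exit channel, was at 580.3, 493 and 459 against 331, 379 and 304 (-0.60, SE 0.14). Rpl35 was at 515, 383 and 426 against 292, 296 and 300.3 (-0.57, SE 0.13). In all 3 genes every knockout was below every control, and each had an adjusted p of 0.722 in edgeR's quasi-likelihood test. Rpl39, which lines the peptide tunnel, was at 1389, 911 and 891 against 664, 711 and 619 (-0.68, SE 0.19). Rpl37 was at 1486, 954 and 923 against 722, 745 and 652 (-0.67, SE 0.19). Control 1 was the highest library in each of the 5, and without it the fold changes were -0.49 for Rps29, -0.49 for Rps26, -0.44 for Rpl35, -0.43 for Rpl39 and -0.40 for Rpl37.

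On the higher side, Rpl5, which with Rpl11 can bind Mdm2 and so stabilise p53, was the 1 member of 83 above every control: 774, 821 and 764 TMM-scaled CPM in controls and 929, 858 and 963 in knockouts (0.22, SE 0.11, adjusted p 0.752 by edgeR). Rps6, the substrate of the S6 kinases, had a log2 fold change of 0.19 (SE 0.14), Rpl3, at the catalytic centre, 0.15 (SE 0.15), Rpl14 0.12 (SE 0.14) and Rps19bp1 0.26 (SE 0.27). The groups overlapped for these 4 genes.

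The fold changes went with coding length. Over the 83 members tested in endothelial-like cells the log2 fold change had a Pearson r of 0.80 with log2 coding length: 40 of 41 short members were lower (median -0.31), and 22 of 42 long members were lower (median -0.01). Over all cells r was 0.79, with 38 of 43 short members (median -0.21) and 7 of 43 long members (median 0.14) lower. The 9 other classes had r between 0.80 and 0.84, with short-member medians from -0.24 to -0.12 and long-member medians from 0.11 to 0.24. All these contrasts use the same 6 mice, the same libraries as in the length relation above, and are not independent of it or of each other.

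In endothelial-like cells 33 of 46 large-subunit core genes were lower (median -0.14) and 24 of 31 small-subunit core genes (median -0.15). All 5 tested paralogs were lower, among them Rpl36al (-0.41, SE 0.18), Rps27l (-0.31, SE 0.12), Rpl22l1 (-0.30, SE 0.15) and Rps27rt (-0.10, SE 0.26), with an adjusted p of 0.722 to 0.946 by edgeR. Among ribosomal proteins outside the naming rule, Fau was at -0.22 (SE 0.14) and Rack1, a scaffold on the small subunit, at 0.16 (SE 0.12). Neither was called.

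In the other 9 classes edgeR called 0 members as well, where the percentage of all genes called was 0.0103 in NK/ILC1-like cells, 0.00771 in T-like cells and 0 in the other 7. DESeq2 called 3 members in mesothelial-like cells and 0 in the other 8 classes, where it called 0.124% of all genes in B-like, 0.123% in NK/ILC1-like, 0.201% in T-like, 0.12% in cDC1-like, 0.255% in cholangiocyte-like, 0.0256% in neutrophil-like, 0% in plasma-like and 0% in stellate/fibroblast-like cells.

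In mesothelial-like cells groups did not overlap for 24 of 83 members (28.9%), against 22% of all genes, and 19 of the 24 were higher in knockouts, a direction in which 12% of all genes did not overlap. Rplp0, of the ribosomal stalk, was at 1117, 1269 and 1643 TMM-scaled CPM in controls and 1884, 1753 and 2140.0 in knockouts (0.52, SE 0.16, adjusted p 0.175 by edgeR), and Rpl29 had 0.43 (SE 0.15). Rps26 was at 822, 744 and 625 against 553, 564 and 502 (-0.44, SE 0.13, adjusted p 0.164 by edgeR), and Rps29 had -0.53 (SE 0.18). The 3 members that DESeq2 called were Rplp0, Rps26 and Rps29, where it called 2.02% of all genes. At an unadjusted p under 0.05 edgeR had 16 of 83 members, against 16.1% of all genes. DESeq2 had 34 members and 1692 of all 13286 genes. The count of 16 was 4 without control 1, 5 without control 2, 35 without control 3, 3 without knockout 1, 4 without knockout 3 and 4 with a depth term. Beside these values, 24 of 24 dissociation stress genes were lower in the knockouts of this class (median -0.51, 0 called by edgeR), with a summed level of 3.38%, 6.35% and 5.64% of UMIs in controls and 3.65%, 3.03% and 3.91% in knockouts. Mitochondrial UMIs were 1.89%, 1.71% and 1.87% in controls and 2.08%, 2.61% and 2.02% in knockouts, without overlap. The part of either in the RP values was not tested.

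In cholangiocyte-like cells groups did not overlap for 23 of 84 members (27.4%), against 16% of all genes, and 19 of the 23 were higher, a direction in which 8.38% of all genes did not overlap. Rpl3 was at 866, 895 and 1079 TMM-scaled CPM in controls and 1382, 1149 and 1158 in knockouts (0.38, SE 0.12), Rpl14 had 0.33 (SE 0.10), Rpl35 -0.36 (SE 0.13) and Rps29 -0.52 (SE 0.21), each with an adjusted p of 0.390 to 0.499 by edgeR. edgeR had 20 members at an unadjusted p under 0.05, where 9.51% of all genes had one. DESeq2 had 25 members and 845 of all 13347 genes. The edgeR count was 4 without control 1, control 2 or knockout 1, and 11 without knockout 3. It was 38 without control 3, 26 without knockout 2 and 5 with a depth term. In this class 16 of 24 dissociation stress genes were higher in the knockouts (median 0.12, 0 called by edgeR), at a summed 5.19%, 5.74% and 5.66% of UMIs in controls and 6.07%, 5.81% and 5.90% in knockouts, without overlap, and their part was not tested.

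The lymphoid classes had fewer separated members. In T-like cells groups did not overlap for 12 of 84 (14.3%), against 11.2% of all genes, and 11 were lower, where 5.56% of all genes were. An unadjusted p under 0.05 was given by edgeR to 13 members and to 5.86% of all genes. DESeq2 gave one to 18 members and to 603 of all 12963 genes. The count of 13 was 3 without control 1 and 1 without knockout 3. It was 19 without control 2, 16 with a depth term and 20 with the replicate block. Rpl35 was at 835, 546 and 697 TMM-scaled CPM in controls and 526, 413 and 457 in knockouts (-0.57, SE 0.16), and Rps29 had -0.68 (SE 0.22). Rpl5 (0.30, SE 0.12) and Rpl4 (0.22, SE 0.15) led the higher side. In B-like cells it was 9 of 83 (10.8%), against 10.9%. There 14 members had an unadjusted p under 0.05 by either tool, where 5.98% of all genes had one by edgeR and 451 of 11253 by DESeq2. By edgeR this was 2 without control 1 and 2 without knockout 3, and 21 without control 2 and 24 with the replicate block. Rps27l was at 62.2, 70.2 and 68.2 in controls and 56.9, 46.1 and 51.8 in knockouts (-0.37, SE 0.12), and Rpl37 had -0.56 (SE 0.19). Rpl5 (0.27, SE 0.12) and Rpl7l1 (0.19, SE 0.15) led the higher side there. In NK/ILC1-like cells it was 4 of 83 (4.82%), against 11.8%. There 8 members had an unadjusted p under 0.05 by edgeR (6.64% of all genes) and 12 by DESeq2 (367 of 9718 genes). The edgeR count was 0 without control 1, 0 without knockout 3, 15 without control 2, 13 without control 3 and 22 without knockout 2. The leading members were Rps29 at -0.63 (SE 0.21), Rpl38 at -0.57 (SE 0.23), Rpl5 at 0.31 (SE 0.14) and Rpl4 at 0.30 (SE 0.15). Adjusted p by edgeR was 0.615 or more in all 3 classes.

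Plasma-like cells had 11 of 83 members without overlap (13.3%), against 10.6% of all genes, and 10 at an unadjusted p under 0.05 by edgeR (5.49% of all genes) and 14 by DESeq2 (279 of 9034 genes), with Rps29 and Rpl39 both at -0.64 (SE 0.22 and 0.21), Rpl5 at 0.30 (SE 0.16) and Rpl12 at 0.24 (SE 0.18). cDC1-like cells had 9 of 83 (10.8%), against 12.2%, and 9 at an unadjusted p under 0.05 by edgeR (6.81% of all genes) and 12 by DESeq2 (417 of 9188 genes), with Rps29 at -0.66 (SE 0.22), Rpl35 at -0.57 (SE 0.17), Rpl5 at 0.30 (SE 0.15) and Rpl14 at 0.29 (SE 0.18). Stellate/fibroblast-like cells had 9 of 83 (10.8%), against 7.63%, and 2 at an unadjusted p under 0.05 by either tool (2.17% of all genes by edgeR, 140 of 11120 by DESeq2), with Rpl38 at -0.64 (SE 0.23), Rps29 at -0.60 (SE 0.23), Rpl12 at 0.33 (SE 0.27) and Rpl5 at 0.25 (SE 0.21). In neutrophil-like cells it was 0 of 83, against 5.33%, and 0 at an unadjusted p under 0.05 by either tool (1.18% of all genes by edgeR, 82 of 7802 by DESeq2), with Rpl38 at -0.78 (SE 0.53), Rps27 at -0.61 (SE 0.43), Rpl7l1 at 0.45 (SE 0.44) and Rpl29 at 0.40 (SE 0.53), the widest errors of all classes. The edgeR counts at an unadjusted p under 0.05 turned on single libraries here too. In plasma-like cells the 10 became 0 without control 1, 2 without knockout 3 and 6 without knockout 1. There it was 14 without control 2 or knockout 2 and 15 with the replicate block or a depth term. In cDC1-like cells the 9 became 1 without control 1, 1 without knockout 3, 16 without control 2 and 15 without control 3. In stellate/fibroblast-like cells the 2 became 0 without control 1, 0 without knockout 3 and 1 without knockout 2. In neutrophil-like cells the 0 became 2 without control 3 and 14 with a depth term.

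Other genes of translation were read from lists of known factors in endothelial-like cells, where 0 genes of any list were called by edgeR and 6.86% of all genes had an unadjusted p under 0.05. Of 29 translation initiation factors, 16 were higher and 13 lower (median 0.03), with 1 at an unadjusted p under 0.05, Eif4b, a cofactor of the cap-binding helicase (0.29, SE 0.11). Of 8 elongation factors, 6 were higher (median 0.09), among them Eef2, the translocation factor (0.20, SE 0.13), and Eef1a1, which delivers transfer RNA (0.10, SE 0.13). Of 41 ribosome biogenesis genes, 29 were lower (median -0.08), with 2 at an unadjusted p under 0.05: Polr1b, a subunit of RNA polymerase I (-0.85, SE 0.32), and Wdr43, of the small-subunit processome (-0.29, SE 0.12). Of 17 regulators of ribosome synthesis, 9 were lower and 8 higher (median -0.004), with 1 at an unadjusted p under 0.05. Myc was at -0.54 (SE 0.22), and the polymerase III repressor Maf1 was at 0.23 (SE 0.12). Of 77 mitochondrial RP genes, 45 were higher (median 0.06), with Mrpl52 (-0.47, SE 0.12) and Mrpl33 (-0.46, SE 0.12) of smallest p. Over all cells 67 of 78 mitochondrial RP genes were higher (median 0.15) and 7 of 8 elongation factors (median 0.13), with 0 called.

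Genes that tissue dissociation is known to induce are given beside these values. In endothelial-like cells 23 of 24 were lower in knockouts (median -0.38), 14 with an unadjusted p under 0.05 and 0 called by edgeR, with Hspa1b, a heat shock protein, at -1.04 (SE 0.22) and Hspe1, a mitochondrial chaperonin, at -0.62 (SE 0.15). Their summed level in this class was 6.24%, 7.09% and 7.15% of UMIs in controls and 4.42%, 5.13% and 6.08% in knockouts. Over all cells it was 3.41%, 4.74% and 4.74% against 3.08%, 3.36% and 4.15%, and 23 of 24 genes were lower (median -0.30). By class, the number lower of 24 was 24 in mesothelial-like and stellate/fibroblast-like, 23 in neutrophil-like, 21 in T-like and cDC1-like, 19 in NK/ILC1-like, 16 in B-like, 12 in plasma-like and 8 in cholangiocyte-like cells. The short-to-long log2 ratio over all cells, given above, was 0.30, 0.08 and -0.21 in controls and -0.40, -0.03 and -0.40 in knockouts. The part of dissociation in the RP values was not tested.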

How the data were processed

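Single-cell RNA-seq libraries of 6 mouse livers, 3 control and 3 knockout by their labels, were read as deposited UMI counts per gene and barcode. Per the submitters' processing notes, which give names without roles, Cell Ranger 7.1.0, Seurat 4.1.1 and build mm10 were used; the counts themselves are whole numbers and were not normalised. Barcodes passed with 300 or more genes and a mitochondrial share no higher than 20% (42682 of 44656), and 923 doublets called by Scrublet were removed. Its automatic threshold worked in 4 libraries, all but controls 2 and 3, and the median of these thresholds was applied to all 6 libraries. Cells were clustered without RP genes in scanpy 1.11.5 (Leiden resolution 1, leidenalg 0.10.2) and named from marker lists, leaving 7 clusters (6.13% of cells) unnamed.

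RP shares are percentages of the UMIs of a class summed per library. The 10 classes that reached 20 cells in each of the libraries were compared by exact permutation and sign-flip tests over mice. Genes were tested with edgeR 4.0.16 (quasi-likelihood, TMM, expression filter, Benjamini-Hochberg over all genes tested, threshold 0.05) in R 4.3.3, and with DESeq2 1.42.0 as an alternative. The labels call the libraries of a group biological replicates. Coding lengths came from GENCODE M21, and promoters from RefSeq. In simulated data with 200 changed genes, edgeR recovered 25% of genes changed by a log2 of 1 and 66% of those changed by 2 over all cells (18355 genes, 6 false calls), and 57% and 88% in endothelial-like cells (12224 genes, 18 false calls).

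The members and lists were chosen with earlier results of these data known. Named were Rpl35; the 5 members of smallest unadjusted p in each direction over all cells and in endothelial-like cells, and 2 in each other class; the 5 highest and 5 lowest by CPM; the 8 with the widest range between classes; the paralogs and name matches; Fau and Rack1; and up to 4 genes of each other list. Alternatives were per-cell means, thinning to 1000 UMIs, other filters, Leiden resolution 2, other scalings, a depth term, DESeq2, a replicate block and leaving out each library. 1 gene that the rule also names is not reported here.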

Additional observations from a re-analysis of the deposited data

Results flagged for a closer look

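Rps19, a small-subunit gene, lay on opposite sides in a pair of classes. Its log2 fold change was 0.12 in mesothelial-like cells, at 2523, 2452 and 2576 TMM-scaled CPM in controls and 2741, 2847 and 2604 in knockouts, and -0.19 in endothelial-like cells, at 1480.0, 1255 and 1402 against 1218, 1153 and 1253. Every knockout was above every control in the first class and below every control in the second, and the difference was not tested.

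Rpl13a, a large-subunit gene, did the same in cDC1-like cells, with a log2 fold change of 0.19 (226, 238 and 224 TMM-scaled CPM in controls and 239, 292 and 254 in knockouts), and in endothelial-like cells, with -0.13 (132, 129 and 127 against 111, 121 and 122.9). This difference was not tested either, and neither gene was called in any of these classes by edgeR.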

How the results depend on the processing

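With 3 mice a group, no share comparison could pass 0.05, and the smallest p over 200 alternatives of 14 share and ratio results was 0.1. Of these, 169 kept their direction and 31 changed sign, 6 of them other than by leaving out a library. The NK/ILC1-like difference was -0.00573 points by per-cell means and -0.00137 at Leiden resolution 2, and the cholangiocyte-like one -0.0173 by per-cell means, -0.0733 after thinning and -0.0796 at Leiden resolution 2. The stellate/fibroblast-like difference was -0.566 with clusters at a common mix, an alternative chosen after seeing the data. The cause was not tested. Leaving out each library in turn gave -1.05 to 0.734 points for the whole library, -1.27 to 0.380 at a common mix of classes, -1.87 to 0.473 in B-like, -0.881 to 0.922 in NK/ILC1-like, -1.60 to 0.461 in T-like, -0.566 to 0.702 in cDC1-like, -0.107 to 0.344 in cholangiocyte-like, -1.19 to -0.336 in endothelial-like, 0.468 to 0.982 in mesothelial-like, -2.42 to 1.85 in neutrophil-like, -1.79 to -0.730 in plasma-like and -0.918 to 1.00 in stellate/fibroblast-like cells. It gave -0.992 to 0.657 for the endothelial-like against T-like difference and a log2 of -0.00545 to 0.0289 for the subunit ratio. Of 132 alternative counts of called members, 130 were 0. DESeq2 called 3 in mesothelial-like cells, and the replicate block called 2 of 83 in B-like cells, with 58 of 11253 genes. Correlations cannot tell whether replicate numbers pair the mice. Over all cells and all genes, same-numbered libraries correlated at 0.193, 0.0118 and 0.308, and 2 of 6 libraries correlated best with their own number. Over RP genes the correlations were -0.516, 0.266 and 0.885, with 3 of 6 libraries best with their own number. By class this was 4 of 6 in B-like, NK/ILC1-like and T-like cells and 2 or 3 of 6 in the others. With the replicate block the endothelial-like difference was -0.740 (exact sign-flip p = 0.25, the smallest value that 3 pairs allow). Of 240 alternatives of 20 named log2 fold changes, 239 kept their direction, and Rps19bp1 in endothelial-like cells ran from -0.000313 without knockout 1 to 0.46 without knockout 2.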
